A study of Mus musculus with 78 samples.

Results

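The thyroid hormone genes described here are 8 protein-coding genes of mouse liver, chosen by name as the rows of the deposited count table with the symbols Thra, Thrb, Dio1, Thrsp, Me1, Klf9, Serpina7 and Ttr. All 8 were found among the 43629 genes of the table, and all 8 passed the filter on low counts in each of the 12 main comparisons. The table held liver poly(A) RNA-seq counts from 78 mice in 26 groups of 3, at 15521588 to 37778510 assigned counts per library. Growth hormone receptor knockout (GHRKO) males and their littermate controls were 5 months old and came from the (C57BL6/JxBALB/cByJ)/F2 stock, and Snell dwarf males and their controls, also 5 months old, from the (PW/JxC3H/HeJ)/F2 stock. UM-HET3 mice, a genetically mixed stock, were studied in both sexes, each with untreated controls of the same age and sex. At 6 months they had had 2 months of acarbose at 1000 ppm, 40% calorie restriction, rapamycin at 42 ppm, Protandim at 1200 ppm or 17-alpha-estradiol at 14.4 ppm. At 12 months they had had 8 months of acarbose at 1000 ppm, 40% calorie restriction or rapamycin at 14 ppm. Methionine restriction was studied in C57BL6/J males of 14 months that had eaten a diet with 0.12% methionine for 12 months, against controls on 0.86%. Acarbose blocks the breakdown of starch in the gut, rapamycin inhibits the kinase Mtor, Protandim is a mixture of plant extracts and 17-alpha-estradiol is a stereoisomer of estradiol with weak feminizing activity.

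Thyroid hormone reaches the liver mostly as thyroxine bound to carrier proteins in plasma and is converted there to the active hormone triiodothyronine by outer-ring deiodination. It acts through nuclear receptors that sit on DNA with a retinoid X receptor and switch between corepressors and coactivators. Liver is a classical target: the hormone raises the genes of fatty acid synthesis, and Thrb is the main receptor of hepatocytes. Snell dwarf mice carry a recessive mutation of the pituitary factor Pou1f1 and lack growth hormone, prolactin and thyroid-stimulating hormone, so they are low in thyroid hormone as well as in growth hormone. GHRKO mice lack the response to growth hormone alone. The labels give no hormone levels, and the genotype of the littermate controls, heterozygous or wild type, is not stated there. C3H/HeJ, a parent of the Snell stock and one of the strains behind UM-HET3, is known for low hepatic Dio1, and the genotype of each mouse at Dio1 is not in the labels.

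The effects of Thrsp, Dio1 and Me1 differed between both dwarf models, as described further on, and the bases just before their first annotated exon are therefore shown, 5′ to 3′. They come from the RefSeq promoter table (GRCm38.p6, the build of the count table). The search took in 9 entries for 6 of the 8 members, and Thra and Ttr were not searched. Capitals mark a match to NGGNNANNNNAGGNCA, a loose form of the receptor's direct repeat with a spacer of 4 bases.
Thrsp, chr7:97417731-97417800, minus strand: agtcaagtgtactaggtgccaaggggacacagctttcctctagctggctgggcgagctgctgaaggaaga
Dio1, chr4:107307170-107307418, minus strand: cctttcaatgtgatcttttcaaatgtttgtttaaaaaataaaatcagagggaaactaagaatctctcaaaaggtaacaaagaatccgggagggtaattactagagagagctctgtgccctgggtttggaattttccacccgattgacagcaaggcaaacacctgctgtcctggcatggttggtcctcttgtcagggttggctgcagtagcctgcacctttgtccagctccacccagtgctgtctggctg
Me1, chr9:86695954-86696164, minus strand: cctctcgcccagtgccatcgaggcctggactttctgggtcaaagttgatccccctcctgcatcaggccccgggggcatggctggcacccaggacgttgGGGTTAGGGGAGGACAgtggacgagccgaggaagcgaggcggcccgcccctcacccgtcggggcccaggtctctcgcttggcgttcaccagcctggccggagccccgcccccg
The loose form was chosen after the Me1 sequence had been read, so the match is a description. It was found on either strand in the 250 bases before the start of 571 of 32851 RefSeq promoters, or 1.74%. Among the members' entries it was in the first of 2 for Me1 alone, at chr9:86696051-86696066, and the second Me1 entry held no match. An element of this kind is known from the rat Me1 promoter. The exact repeat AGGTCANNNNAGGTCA stood in 5 promoters, or 0.0152%, and in none of the 9 entries searched. Its half-site AGGTCA, which both longer motifs can contain, stood in 14.0% of promoters and in 1 of the members' entries, the first of 2 for Thrb. The known response elements of Thrsp lie farther upstream than this window.

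Per exon length, Ttr was by far the most abundant member, with a median of 4574 RPKM (read counts scaled to exon length and library size) over the 78 libraries. Thrsp followed at 48.6, Dio1 at 34.6, Me1 at 34.2, Klf9 at 17.4 and Serpina7 at 12.4 RPKM. The 2 receptors were the lowest and close to each other, Thrb at 3.89 and Thra at 3.63 RPKM. The ratio of the highest to the lowest library was 1033 for Dio1, 471 for Thrsp and 306 for Serpina7, against 2.46 for Thrb and 3.09 for Thra. In 9 libraries the summed markers of another tissue passed 1000 counts: skeletal muscle in 1 Snell dwarf (replicate 1), 1 restricted female and 1 restricted male of 6 months and 1 rapamycin male of 12 months, adrenal gland in 1 restricted female of 12 months and 1 rapamycin male of 6 months, pancreas without Cela1 in 1 acarbose male and 1 Protandim female (replicate 3) of 6 months, and kidney in 1 17-alpha-estradiol male of 6 months. Calls that were lost when these 9 were left out, an alternative chosen after seeing the data, are given with their adjusted p. Levels below are CPM, counts scaled to library size by TMM over all libraries. Effects are log2 fold changes with their standard errors from edgeR's quasi-likelihood test, with p-values adjusted by the Benjamini-Hochberg method over all genes tested and a threshold of 0.05.

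In the livers of Snell dwarf mice, 6 of the 8 members changed: Dio1, Thrsp, Me1 and Klf9 fell and Serpina7 and Thra rose. In that comparison 20.1% of all 12528 genes tested were called. In GHRKO mice 1 member changed, the carrier gene Ttr, where 14.8% of 12571 genes were called. The difference between the effects of both models was itself called for 3 members, Dio1, Me1 and Thrsp, where 1.16% of 13105 genes were called. The median effect over the 8 members was -0.82 in Snell dwarf mice and 0.22 in GHRKO mice, beside 0.01 and -0.01 over all genes tested. The members were chosen with earlier results of these data known, so these counts and medians are a description. Both models also differ in mouse stock, which cannot be told apart from the mutation in a difference between them.

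Dio1 (ENSMUSG00000034785, chr4:107291465-107307169) encodes the type 1 deiodinase, the enzyme of liver and kidney that makes triiodothyronine and clears reverse triiodothyronine, and its transcription is raised by the hormone. Its level was 0.394, 1.31 and 0.297 CPM in the 3 Snell dwarf libraries, from 7, 20 and 5 counts, and 183, 100 and 114 CPM in their controls. The groups were far apart, and the log2 fold change was -7.64 ± 0.51 (adjusted p = 0.00025 by edgeR). In GHRKO livers Dio1 stood at 61.4, 72.7 and 44.1 CPM, inside the control range of 13.9 to 68.4 CPM but for 1 library, and the log2 change was 0.25 ± 0.65 (adjusted p = 0.83). The Snell effect minus the GHRKO effect was -7.90 ± 0.98 (adjusted p = 0.0086), and it passed under all 17 alternatives, with values from -8.79 to -7.46.

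Thrsp (ENSMUSG00000035686, chr7:97412938-97417730) encodes the Spot 14 protein, which takes part in the induction of fatty acid synthesis by thyroid hormone and carbohydrate. It was at 31.9, 56.3 and 18.9 CPM in Snell dwarf livers and at 358, 576 and 641 CPM in their controls, so that the highest dwarf library lay below the lowest control. Thrsp fell by 3.86 ± 0.47 on the log2 scale (adjusted p = 0.0033 by edgeR). GHRKO livers held 402, 461 and 927 CPM against 720, 317 and 256 CPM in controls; these groups overlapped, and the log2 change was 0.47 ± 0.52 (adjusted p = 0.58). The difference of the effects was -4.34 ± 0.77 (adjusted p = 0.033). That call was lost in 12 of 17 alternatives, with adjusted p-values from 1.7e-05 to 0.102 and log2 values from -4.94 to -3.87. It was lost without replicate 2 or 3 of either GHRKO group, without replicate 1 or 3 of the Snell dwarfs, without each of the Snell controls in turn, and without the other-tissue libraries, of which the Snell dwarf of replicate 1 is the 1 in this fit, at 0.102.

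Me1 (ENSMUSG00000032418, chr9:86581371-86695953) encodes cytosolic malic enzyme, which supplies NADPH for fatty acid synthesis and has long served as a marker of thyroid hormone action in liver. Its level was 50.5, 51.1 and 43.9 CPM in Snell dwarf livers against 284, 329 and 354 CPM in controls, a change of -2.72 ± 0.14 on the log2 scale (adjusted p = 9.4e-06 by edgeR). The dwarf libraries lay close together and far below every control. In GHRKO livers Me1 was at 199.8, 279 and 203 CPM against 252, 276 and 158 CPM, with a log2 change of -0.0014 ± 0.23 and a 95% interval from -0.45 to 0.45. The effects differed by -2.72 ± 0.28 (adjusted p = 0.00036), and all 17 alternatives kept the call.

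Klf9 (ENSMUSG00000033863, chr19:23141226-23168134), a zinc finger transcription factor induced directly by thyroid hormone and by glucocorticoids, stood at 20.7, 29.6 and 13.3 CPM in Snell dwarf livers and 55.8, 48.5 and 54.5 CPM in controls. It fell by 1.30 ± 0.27 (adjusted p = 0.015 by edgeR). The call was lost without the Snell library of replicate 1, which held 329 CPM of skeletal muscle markers, and without the control of replicate 1, at adjusted p-values of 0.058 and 0.056. GHRKO livers also lay below all their controls, at 16.3, 35.5 and 39.8 CPM against 44.1, 64.9 and 47.4 CPM, but the log2 change of -0.76 ± 0.34 did not pass (adjusted p = 0.18 by edgeR); DESeq2 called it (adjusted p = 0.047). The difference of the effects was -0.54 ± 0.48, with a 95% interval from -1.48 to 0.39.

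Serpina7 (ENSMUSG00000031271, chrX:139079257-139085236) encodes thyroxine-binding globulin, the plasma carrier of thyroxine, which is made in rodent liver when thyroid hormone is low. It had its highest levels of the whole series in Snell dwarf livers, at 306, 380 and 247 CPM against 40.9, 41.4 and 30.6 CPM in controls. The rise was 3.07 ± 0.20 on the log2 scale (adjusted p = 4.3e-05 by edgeR). GHRKO livers came next among the 26 groups at 108, 207 and 140 CPM, above all 3 of their controls at 17.6, 71.0 and 66.4 CPM. Their log2 change of 1.56 ± 0.59 did not pass (adjusted p = 0.15), and it passed without the control of replicate 1, the lowest, at 1.15 (adjusted p = 0.034). The Snell effect exceeded the GHRKO effect by 1.498 ± 0.64, which did not pass (adjusted p = 0.39) except without that same control, at 1.89 (adjusted p = 0.033).

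Ttr (ENSMUSG00000061808) encodes transthyretin, the second carrier of thyroxine, which liver and choroid plexus secrete. It was at 11011, 8481 and 9170 CPM in GHRKO livers and between 5209 and 5489 CPM in their controls, with no overlap. Ttr rose by 0.85 ± 0.16 on the log2 scale (adjusted p = 0.0085 by edgeR; 10 of 10 alternatives kept the call). Snell dwarf livers held 8212, 6915 and 12865 CPM against 6461, 6527 and 8488 CPM; these overlapped, and the log2 change of 0.39 ± 0.23 did not pass (adjusted p = 0.26). The difference of the effects was -0.46 ± 0.28 (adjusted p = 0.57).

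Of the receptor genes, Thra changed in Snell dwarfs and Thrb was not called in either model. Thra (ENSMUSG00000058756, chr11:98740638-98769006), which encodes the receptor alpha and a splice variant that does not bind hormone, was at 19.5, 21.0 and 23.7 CPM in Snell dwarf livers and 14.4, 14.2 and 14.0 CPM in controls. It rose by 0.60 ± 0.12 on the log2 scale (adjusted p = 0.0085 by edgeR). In GHRKO livers its change was 0.18 ± 0.13 (adjusted p = 0.38), and the difference between the models was 0.42 ± 0.16 (adjusted p = 0.31). Thrb (ENSMUSG00000021779, chr14:17660261-18038090) stood at 24.4, 25.8 and 29.5 CPM in Snell dwarf livers, below the controls at 34.1, 34.5 and 32.8 CPM; its log2 change of -0.33 ± 0.11 did not pass (adjusted p = 0.057). The change of Thrb in GHRKO livers was -0.51 ± 0.20 (adjusted p = 0.12), and it passed without the control of replicate 3, at -0.71 (adjusted p = 0.019).

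**Figure D1:**
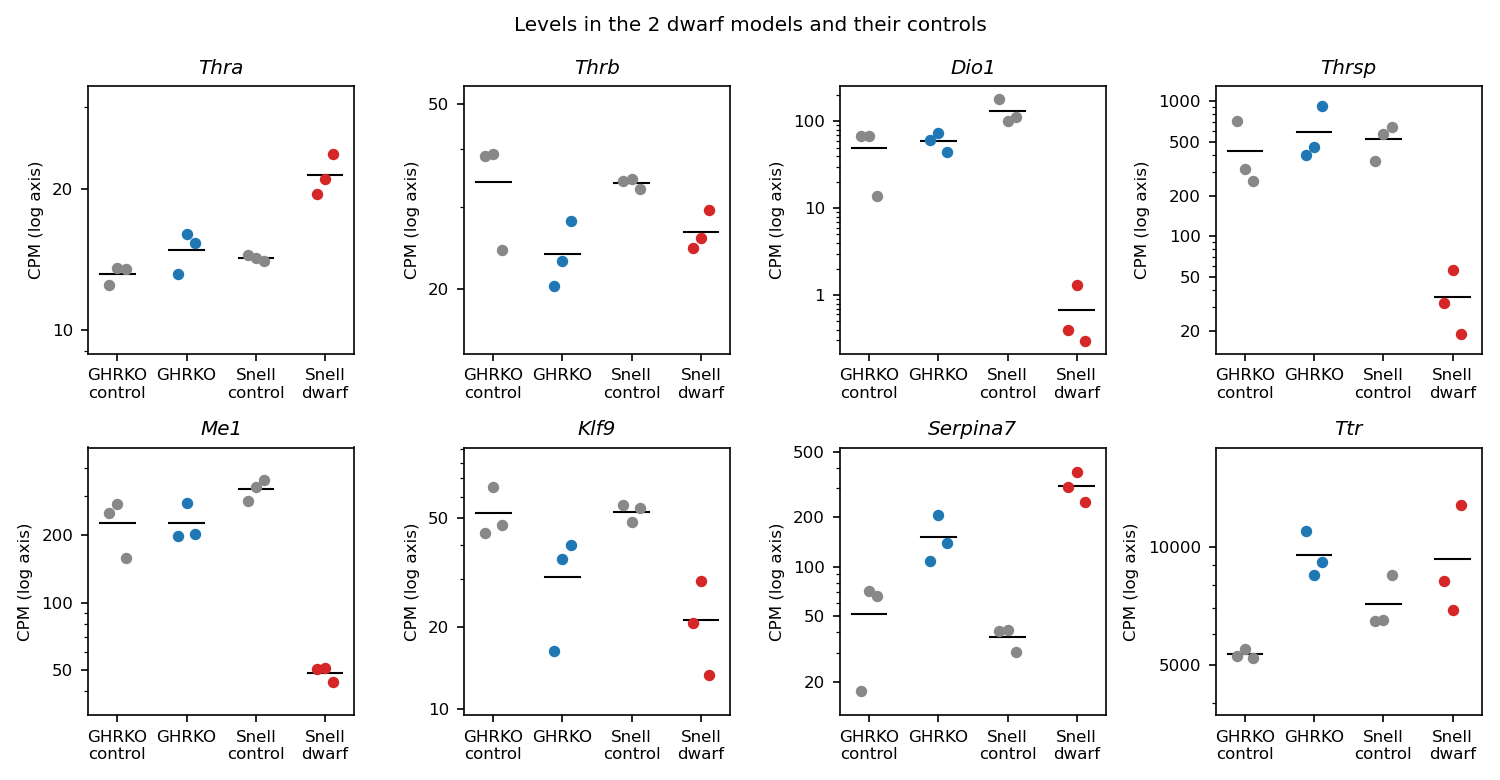
Each panel shows 1 member, with CPM on a log axis and a point for each of the 3 libraries in the GHRKO control, GHRKO, Snell control and Snell dwarf groups; black lines are group means. Dio1 (0.297 to 1.31 CPM), Thrsp and Me1 lie below every other library of the panel in the Snell dwarfs, and Serpina7 lies above.

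As a check of the labels, Ghr, the gene disrupted in GHRKO mice, was at 55.2, 76.1 and 83.9 CPM in GHRKO libraries and 601, 606 and 434 CPM in their controls, a log2 change of -2.93 ± 0.20. Of 7 hepatocyte markers, none at 0, only 3 were called up in each model, Alb and Apoa2 in both. Their sums ranged from 144297 to 183941 CPM in Snell dwarfs against 84033 to 113208 CPM in controls. They ranged from 146425 to 187232 CPM in GHRKO against 85195 to 102023 CPM. The sums of 5 further lists of liver and blood cell markers overlapped between Snell dwarfs and their controls. In these lists Krt7 and Sox9 of cholangiocytes (1 up, 1 down) and Cd4 of lymphocytes (down) were called. The sums of red cells did not overlap (120 to 329 CPM against 362 to 453 CPM, 1 of 4 markers called down), nor did those of neutrophils (1.49 to 3.77 CPM against 0.0614 to 0.654 CPM, 2 of 4 markers at 0 in each group). S100a9, the 1 neutrophil marker tested, was called up. In GHRKO mice the neutrophil sums were at 2.82 to 2.90 CPM against 1.11 to 2.75 CPM, and 1 of 5 macrophage markers, Cd68, was called up, with sums of 196 to 336 CPM against 102 to 197 CPM. Pancreas markers also stood apart through Cela1, at 8.20 to 9.01 CPM against 72.7 to 81.8 CPM in Snell dwarfs and 10.3 to 12.3 CPM against 21.6 to 42.5 CPM in GHRKO mice. In bulk liver, fewer cells of a type and less RNA per cell cannot be told apart, and the part of these marker levels in the members' effects was not tested.

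The other genes of the pathway were taken from lists chosen for this description with earlier results of these data known. Their counts stand against 20.1% of all genes called in Snell dwarfs and 14.8% in GHRKO mice. Of 13 genes of fatty acid synthesis known as targets of the hormone, 8 fell and none rose in Snell dwarfs (median log2 change -0.90, against 0.01 over all genes); 3 fell and none rose in GHRKO mice (median -0.23). Acacb, the acetyl-CoA carboxylase of mitochondria, fell by 2.87 ± 0.24 in Snell dwarfs and by 0.94 ± 0.16 in GHRKO mice, and these effects differed by -1.93 ± 0.30 (adjusted p = 0.0087 by edgeR). Gpd2, the mitochondrial glycerol phosphate dehydrogenase whose activity is a classical measure of thyroid state, fell by 1.02 ± 0.17 in Snell dwarfs and had a log2 change of 0.26 ± 0.15 in GHRKO mice. Its effects differed between models by -1.28 ± 0.24 (adjusted p = 0.021). Mlxipl, the carbohydrate-responsive factor ChREBP, fell in both, by 1.36 ± 0.12 and 0.78 ± 0.12, and Acly, ATP citrate lyase, fell by 0.90 ± 0.17 in Snell dwarfs. The difference between models was called for 2 of the 13 genes.

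Of 14 genes of hormone transport and metabolism tested, 5 rose and 4 fell in Snell dwarfs, and 4 rose and 2 fell in GHRKO mice; the difference was called for none, at 1.16% of all genes. Slco1a4, a transporter of thyroxine and other organic anions, rose by 3.27 ± 0.27 in Snell dwarfs and by 1.82 ± 0.28 in GHRKO mice. Slc16a10, the transporter MCT10, rose by 1.24 ± 0.18 in Snell dwarfs. Slco1a1, an organic anion transporter, fell by 8.74 ± 0.32 in GHRKO mice. Sult1a1, a sulfotransferase, rose by 1.44 ± 0.20 in Snell dwarfs and by 1.25 ± 0.15 in GHRKO mice. The deiodinase genes Dio2 and Dio3 did not pass the filter on low counts in Snell dwarfs and their controls. Of 16 receptor partners and cofactors, 2 fell and none rose in each model, a share near or below that of all genes. The corepressor gene Ncor1 fell by 0.70 ± 0.13 in Snell dwarfs and by 0.61 ± 0.17 in GHRKO mice. It was joined by the coactivator gene Ncoa2 in Snell dwarfs, at -0.59 ± 0.13.

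Among 9 genes of cholesterol and bile acid metabolism, 1 rose and 1 fell in Snell dwarfs: Scarb1, the receptor for high-density lipoprotein, by 0.55 ± 0.16, and Lipc, hepatic lipase, by -0.86 ± 0.12. That count is near the share of all genes. In the glucose and energy list 3 of 11 genes tested rose and 1 fell in Snell dwarfs. Among them were Ppargc1a, a coactivator of mitochondrial genes, at 3.09 ± 0.63, Esrra, a nuclear receptor of the same program, at 0.69 ± 0.11 and Bcl3 at -1.44 ± 0.37. Growth hormone targets, a list for contrast, fell in both models: 8 of 11 in Snell dwarfs and 7 of 11 in GHRKO mice. In that order Igf1 was at -4.89 ± 0.33 and -6.05 ± 0.18, Igfals, which carries it in plasma, at -4.88 ± 0.42 and -5.05 ± 0.26 and Hsd3b5, a male-specific steroid enzyme, at -9.73 ± 0.20 and -10.76 ± 0.58. In that list the difference between models was called for Cyp2d9, at 1.05 ± 0.23. Of 7 glucocorticoid targets, a list that bears on Klf9, 2 rose and 1 fell in Snell dwarfs and 3 rose and 1 fell in GHRKO mice. The metallothionein gene Mt1 rose by 6.13 ± 0.78 and 5.30 ± 0.93, and Fkbp5, a chaperone of the glucocorticoid receptor, fell by 1.32 ± 0.19 and 2.15 ± 0.45. Of 16 clock genes tested, 3 rose and 1 fell in Snell dwarfs, near the share of all genes, and 1 fell in GHRKO mice, below it, with Clock at -1.23 ± 0.15 in Snell dwarfs and Bhlhe41 at -2.35 ± 0.37 in GHRKO mice.

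**Figure D2:**
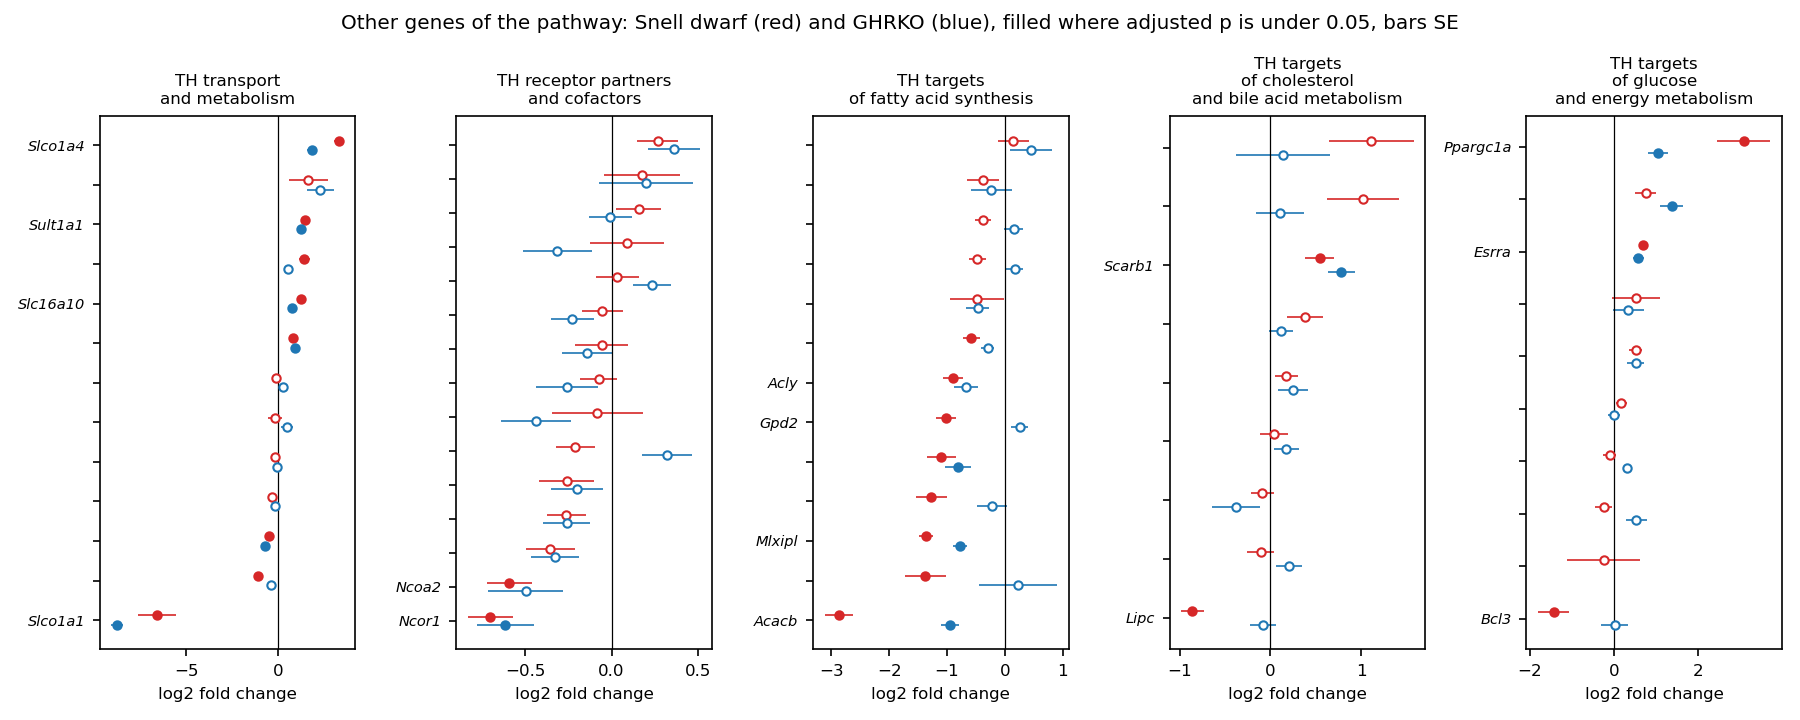
Log2 fold changes with standard errors of genes in 5 lists, with the genes described in the text labelled, red for Snell dwarf and blue for GHRKO mice, each against their own controls (3 libraries a group), with filled points where the adjusted p is under 0.05. In the fatty acid synthesis panel every filled red point lies below 0, the lowest at -2.87 for Acacb, and Gpd2 is red at -1.02 and blue at 0.26.

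Calorie restriction for 2 months called 4 of the 8 members at 6 months, where 26.1% of 14816 genes were called. Thrsp rose from 3.58, 5.88 and 9.95 CPM in control females to 148, 159 and 271 CPM, and from 16.4, 5.76 and 34.6 CPM in control males to 124, 210.0 and 107 CPM. All restricted libraries lay above all controls of their sex, and the mean log2 change over both sexes was 3.93 ± 0.45 (adjusted p = 9.4e-07 by edgeR), called in all 18 alternatives from 3.72 to 4.31. It was called within each sex, at 4.90 ± 0.67 in females (17.0% of genes called) and 2.95 ± 0.61 in males (7.84%). The difference between sexes, -1.95 ± 0.82, did not pass (adjusted p = 0.55, with 0.00675% of genes called). Thrsp thus lay higher under restriction and lower in Snell dwarfs than in the respective controls.

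Thra fell under calorie restriction at both ages. At 6 months it was at 12.3, 13.6 and 12.4 CPM in restricted females against 20.5, 23.1 and 16.7 CPM, and at 12.8, 12.6 and 11.0 CPM in restricted males against 21.4, 21.9 and 16.6 CPM. No restricted library reached a control of its sex, and the log2 change was -0.69 ± 0.11 (adjusted p = 2.4e-05 by edgeR), within females -0.65 ± 0.15 and within males -0.72 ± 0.15, both called. After 8 months of restriction the change was -0.62 ± 0.14 (adjusted p = 0.0041), and both calls held in all 18 alternatives. Within 12-month females Thra was not called (4.72% of genes called). All restricted females lay below all their controls, at a mean of 12.9 CPM against 18.9 CPM. Within 12-month males the change was -0.71 ± 0.19 (adjusted p = 0.048 by edgeR, 3.09% of genes called). That call was lost in 6 of 9 alternatives, without the control of replicate 1 or 2 and without each of the restricted males in turn among them, and without the other-tissue libraries at an adjusted p of 0.055.

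Exons of Nr1d1, the clock gene encoding Rev-erb alpha, cover 263 bases, or 5.70%, of the exons of Thra on the opposite strand, and the strand of counting is not stated. Nr1d1 itself fell by 2.49 ± 0.26 at 6 months and by 5.34 ± 0.50 at 12 months under restriction, from control levels of 92.1 to 222 CPM and of 40.2 to 157 CPM. Its part in the values of Thra was not tested. Of 17 clock genes, 8 rose and 3 fell under restriction at 6 months, where 26.1% of all genes were called. Among those that rose was Cry1, a repressor of the clock, by 2.34 ± 0.19. At 12 months 3 rose and 2 fell, where 13.8% of all genes were called. The labels give no hour of killing. Under acarbose at 6 months Thra fell too, by 0.55 ± 0.11 (adjusted p = 0.0026; 6.16% of genes called), with Nr1d1 at -0.44 ± 0.24 (adjusted p = 0.29), and all 18 alternatives kept the call of Thra. Acarbose libraries of Thra lay between 11.7 and 15.6 CPM in both sexes, below all controls of their sex. In the transport and metabolism list 2 genes fell under acarbose, among them Slc10a1, the bile acid transporter NTCP, by 0.42 ± 0.10, and no gene of the fatty acid synthesis list was called.

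Klf9 fell by 0.40 ± 0.14 under calorie restriction at 6 months (adjusted p = 0.028 by edgeR) and by 0.97 ± 0.27 at 12 months (adjusted p = 0.021; 13.8% of 13639 genes called). At 12 months restricted females stood at 22.0, 24.2 and 14.7 CPM against 48.1, 27.1 and 45.9 CPM, and restricted males at 34.2, 12.3 and 16.04 CPM against 51.2, 30.1 and 42.1 CPM, where the groups overlapped. At 6 months the call was lost in 6 of 18 alternatives (without replicate 3 of the controls of either sex, replicate 2 of the restricted females or replicate 3 of the restricted males among them, and without the other-tissue libraries at an adjusted p of 0.115), with log2 values from -0.51 to -0.29. At 12 months it was lost in 6 of 18 (without replicate 1 of the controls of either sex, replicate 3 of the restricted females or replicate 2 or 3 of the restricted males among them), from -1.24 to -0.84.

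Of the plasma carriers, Serpina7 fell by 1.15 ± 0.34 at 12 months (adjusted p = 0.028 by edgeR). It was at 27.5, 33.3 and 40.5 CPM in restricted females and 15.6, 54.6 and 12.8 CPM in restricted males, below all controls of the same sex, at 41.9 to 93.5 CPM in females and 60.2 to 98.3 CPM in males. The call was lost in 9 of 18 alternatives: without replicate 1 of the control females, 2 of the control males, 1 or 2 of the restricted females and 1 or 3 of the restricted males among them, from -1.63 to -0.93, and without the 9 libraries with other-tissue markers (adjusted p = 0.070). At 6 months it was called in restricted females alone, at -1.80 ± 0.57 (6.56 to 8.32 CPM against 10.3 to 37.8 CPM; adjusted p = 0.028). It was lost in 6 of 9 alternatives, without replicate 1 or 3 of the controls and without each restricted female in turn among them, and without the other-tissue libraries at an adjusted p of 0.143. In males of that age the change was 1.20 ± 0.58 (adjusted p = 0.21), and the sex difference of 3.00 ± 0.81 did not pass (adjusted p = 0.32).

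Ttr rose by 0.43 ± 0.15 under restriction at 6 months (adjusted p = 0.035 by edgeR). The call was lost in 10 of 18 alternatives, from 0.35 to 0.60, without replicate 1 or 2 of the control females, 1 or 3 of the control males, 1 or 2 of the restricted females or 2 or 3 of the restricted males among them, and without the other-tissue libraries at an adjusted p of 0.132. Its restricted males, at 5145, 6965 and 7700 CPM, lay above the control males at 3901, 4574 and 4067 CPM, while restricted females, at 4655 to 5740 CPM, lay inside the control range of 3431 to 6368 CPM. Summed hepatocyte markers were also higher in restricted males, at 108654 to 143567 CPM against 66747 to 91408 CPM at 6 months and 162039 to 183629 CPM against 87116 to 110329 CPM at 12 months. In females they were at 107353 to 142766 CPM against 99907 to 112227 CPM at 6 months, which overlapped, and at 159519 to 228329 CPM against 125718 to 133304 CPM at 12 months. Their part in the members' values was not tested. Dio1, Me1 and Thrb were not called under restriction at either age. For Dio1 the log2 changes were -1.19 ± 0.92 and 0.09 ± 0.97, for Thrb 0.15 ± 0.08 and 0.15 ± 0.11. For Me1 they were -0.22 ± 0.17 and -0.81 ± 0.29 (adjusted p = 0.067 at 12 months, 0.029 by DESeq2, and 0.016 by edgeR without the male control of replicate 3).

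The pathway lists under restriction stand against 26.1% of all genes called at 6 months and 13.8% at 12 months. At 6 months 7 of 13 genes of fatty acid synthesis rose and 1 fell (median log2 change 0.44, against 0.00024 over all genes), with Pklr, liver pyruvate kinase, up by 1.28 ± 0.20 and Acly up by 0.74 ± 0.12. At 12 months none of these 13 rose and Gpd2 fell by 0.65 ± 0.16, a share below that of all genes. In the transport and metabolism list 7 of 15 genes rose and 2 fell at 6 months. Secisbp2, needed to make selenoproteins such as the deiodinases, fell by 0.50 ± 0.07. Dio3, the deiodinase that inactivates the hormone, rose by 2.62 ± 0.40. Its levels are not given here, and it did not pass the filter on low counts in Snell dwarfs and their controls. At 12 months 3 of 14 rose, among them Sult1a1 by 0.80 ± 0.17 and Alb, serum albumin, by 0.71 ± 0.18. Called at 6 months were also 2 of 16 cofactors, 2 of 9 genes of cholesterol and bile acid metabolism, 3 of 12 of glucose and energy metabolism and 1 of 7 glucocorticoid targets, each at or below the share of all genes, and 5 of 12 growth hormone targets. At 12 months these counts were 3 of 16, 1 of 9, 5 of 12, 1 of 7 and 0 of 12.

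**Figure D3:**
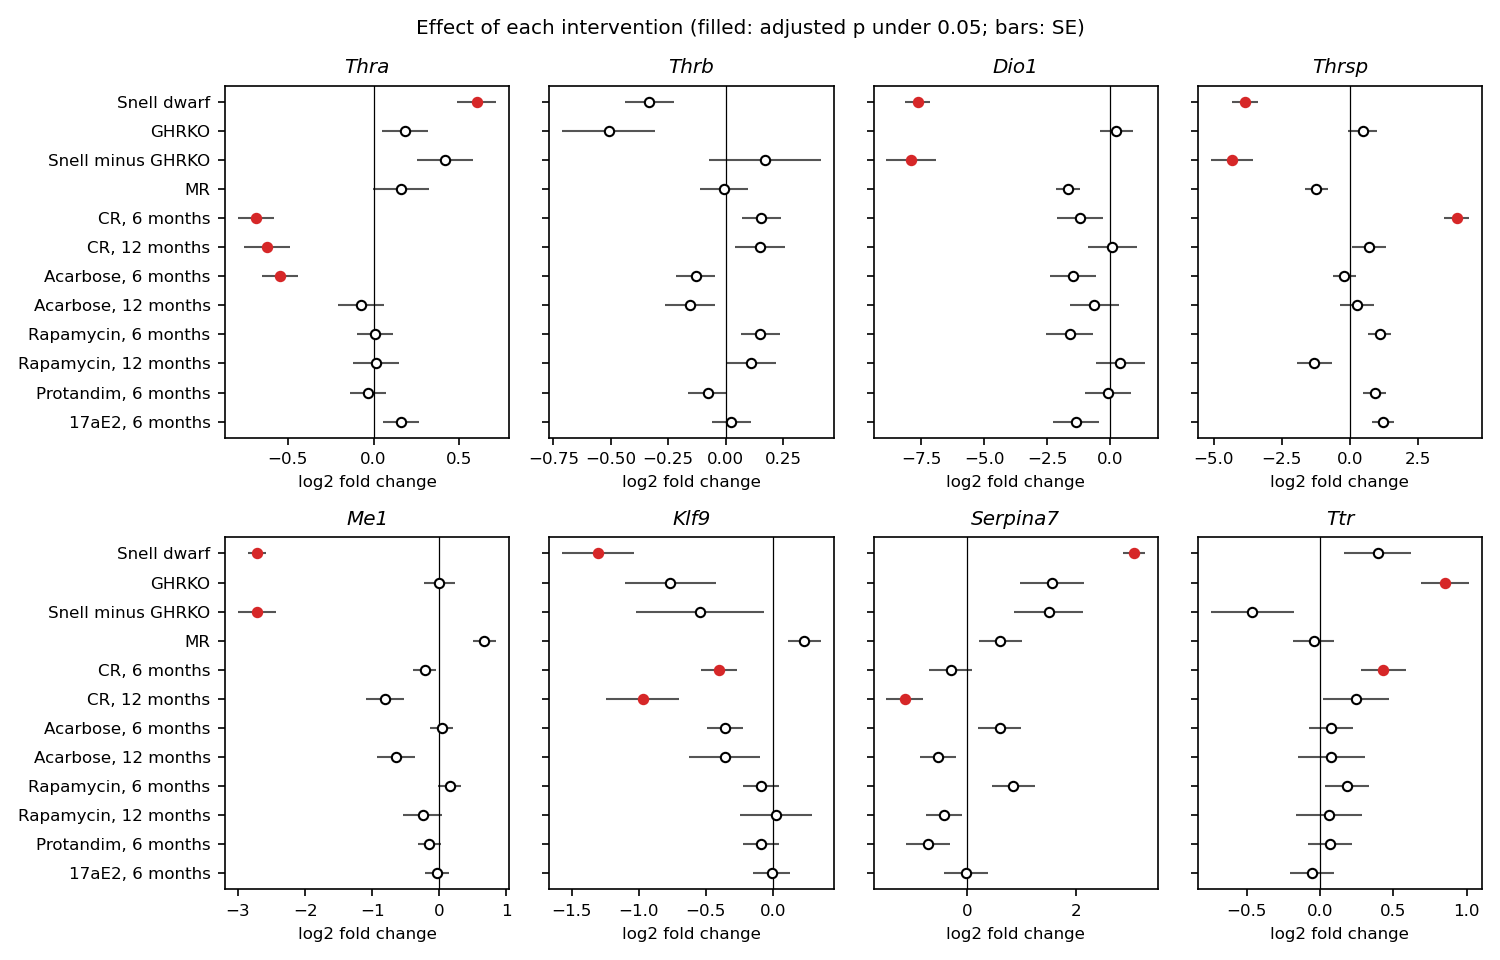
Log2 fold change with its standard error of each member in the 12 main comparisons, with filled red points where the adjusted p is under 0.05; CR is calorie restriction, MR methionine restriction and 17aE2 17-alpha-estradiol. Thrsp is filled at -3.86 for Snell dwarfs and at 3.93 for calorie restriction at 6 months, and Thra is filled below 0 in both calorie restriction comparisons and in acarbose at 6 months.

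No member was called under methionine restriction, where 3.80% of 13858 genes were called. Dio1 was at 22.9, 11.5 and 45.7 CPM on the low-methionine diet against 80.7, 64.9 and 111 CPM, with no overlap. Its log2 change was -1.68 ± 0.47 (adjusted p = 0.11 by edgeR; 0.024 without the restricted library of replicate 3). Me1 was at 455, 610 and 502 CPM, its highest mean of any group, against 257, 391 and 336 CPM, with a change of 0.67 ± 0.18 (adjusted p = 0.083; 0.023 with no filter on low counts). Thrsp was at 46.1, 141 and 106 CPM against 155, 226 and 309 CPM, also without overlap, with a change of -1.23 ± 0.42 (adjusted p = 0.17). How many of all genes lay without overlap was not counted. DESeq2 called 1119 genes in this comparison, against 527 by edgeR. Among them were 2 of these 3, Me1 (adjusted p = 0.0107) and Thrsp (adjusted p = 0.0115). In the fatty acid synthesis list Scd1, stearoyl-CoA desaturase, fell by 1.17 ± 0.20 and was the 1 gene called of 13. In the transport and metabolism list Sult1a1 fell by 0.72 ± 0.09 and Sult1b1, another sulfotransferase, by 0.88 ± 0.16, 2 of 14 genes tested.

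The drugs other than acarbose called no member over both sexes. For rapamycin 0.412% of genes were called at 6 months and 0% at 12 months (665 genes at an unadjusted p under 0.05, and 10 genes by DESeq2). The shares were 1.38% for Protandim and 0.385% for 17-alpha-estradiol, and acarbose at 12 months called 0.0587% of genes and no member. Thrsp was nevertheless called in females at 6 months under 2 of them. Under Protandim it was at 27.8, 131 and 59.3 CPM against 3.58, 5.88 and 9.95 CPM in control females, a rise of 3.50 ± 0.64 (adjusted p = 0.0076 by edgeR; 5.35% of genes called). In Protandim males it was at 7.08, 6.28 and 4.76 CPM against 16.4, 5.76 and 34.6 CPM, a change of -1.65 ± 0.61 (adjusted p = 0.65 by edgeR, with 0.0135% of genes called). The difference between sexes of -5.16 ± 0.88 did not pass (adjusted p = 0.055 by edgeR, with 0% of genes called, 1689 at an unadjusted p under 0.05). DESeq2 called it, and so did edgeR without replicate 3 of the control females, 1 or 2 of the control males or 1 of the Protandim females, at adjusted p-values of 0.0075 to 0.047. Under 17-alpha-estradiol females held 48.4, 32.8 and 31.1 CPM, a rise of 2.53 ± 0.62 (adjusted p = 0.029; 2.87% of genes called). Males held 10.8, 25.4 and 17.3 CPM, a change of -0.09 ± 0.58 (0.0607% of genes called). The difference between sexes of -2.62 ± 0.84 did not pass (adjusted p = 0.22 by edgeR, 0.054% of genes called).

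These female calls rest on few libraries. The Protandim call was lost in 4 of 9 alternatives, without the control of replicate 1 or 2 and without the Protandim female of replicate 2 among them, with log2 values from 2.75 to 3.96. It was also lost without the other-tissue libraries (adjusted p = 0.066), of which the Protandim female of replicate 3 is 1, with 1113 counts of pancreas markers besides Cela1. The 17-alpha-estradiol call was lost in 6 of 9, without the control of replicate 1 or 2 and without each treated female in turn among them, from 2.22 to 2.99, and without the other-tissue libraries at an adjusted p of 0.052. Both share the same 3 control females with calorie restriction. Thra was called in acarbose females, at -0.52 ± 0.15 (adjusted p = 0.024 by edgeR; 10.6% of genes called), a call lost without the treated female of replicate 3 or the control of replicate 1 or 2. In males the change was -0.58 ± 0.15 (adjusted p = 0.34 by edgeR). There 0% of genes were called, with 1262 at an unadjusted p under 0.05.

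Differences of an effect between sexes were called for none of the 8 members in any of 8 comparisons. The remaining shares of genes called for such differences were 0.378% for acarbose and 0% for rapamycin at 6 months, and 0.00733% for acarbose, 0% for calorie restriction and 0% for rapamycin at 12 months. In untreated mice 1 member differed between sexes. Serpina7 at 6 months was at 3.88, 1.71 and 5.80 CPM in males against 37.8, 10.3 and 31.2 CPM in females. The male-minus-female log2 difference was -2.79 ± 0.59 (adjusted p = 0.0048 by edgeR; 4.98% of genes called; 9 of 9 alternatives kept the call). At 12 months it was at 69.1, 98.3 and 60.2 CPM in males and 93.5, 41.9 and 50.3 CPM in females, a difference of 0.29 ± 0.47 (adjusted p = 0.85; 2.88% of genes called, none of them a member). Whether the sex difference changed between ages was not tested.

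Between ages the effect of calorie restriction differed for Thrsp. Restricted mice of 12 months held 363, 569.6 and 370.1 CPM in females against 212, 518 and 77.8 CPM, and 773, 1066 and 986 CPM in males against 263, 1012 and 464 CPM in male controls. The log2 change was 0.71 ± 0.62 (adjusted p = 0.49 by edgeR). The 12-month effect minus the 6-month effect was -3.22 ± 0.75 (adjusted p = 0.0027; 12.8% of 15159 genes called), and all 27 alternatives kept the call, from -3.58 to -2.77. The controls differed at the same time: Thrsp lay between 3.58 and 34.6 CPM in the 6 controls of 6 months and between 77.8 and 1012 CPM in the 6 of 12 months. For acarbose 1.06% and for rapamycin 0% of genes had a called age difference (1513 at an unadjusted p under 0.05 for rapamycin, whose dose also differed), and none was a member.

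Klf9 ran the other way between ages in UM-HET3 mice. It lay between 119 and 163 CPM in the 6-month controls and between 27.1 and 51.2 CPM in the 12-month controls. Over all 36 and 24 UM-HET3 libraries it ranged from 68.2 to 163 CPM and from 10.5 to 67.8 CPM, without overlap. In mice of other stocks the order of ages did not hold. Klf9 lay between 91.2 and 122 CPM in the methionine controls of 14 months. At 5 months it lay between 44.1 and 64.9 CPM in GHRKO controls and between 48.5 and 55.8 CPM in Snell controls. Serpina7 lay between 1.24 and 37.8 CPM in the 36 libraries and between 12.8 and 98.3 CPM in the 24. Ttr ranged from 3328 to 7700 CPM and from 4084 to 11656 CPM, and the receptor Thrb from 19.4 to 34.4 CPM and from 15.9 to 35.8 CPM. Library totals were 25888571 to 31973353 counts in the 6-month controls and 17742947 to 19860614 in the 12-month controls. They were 26337452 to 31545019 in the methionine controls and 15521588 to 18267666 in the controls of 5 months. The part of depth in these levels was not tested. The labels do not say what else differed between the collections of both ages, so the part of age itself cannot be told apart.

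Over the 26 groups, the mean CPM of Thrsp was highest in restricted males of 12 months (942 ± 152, SD, n = 3). It was followed by GHRKO males (597 ± 288) and 12-month control males (580 ± 387), which do not differ beyond their spread. It was lowest in Protandim males (6.04 ± 1.18) and control females of 6 months (6.47 ± 3.23), also within their spread. Dio1 was highest in restricted females of 12 months (189 ± 48.4) and lowest in Snell dwarfs (0.667 ± 0.558), below acarbose males of 12 months (17.1 ± 15.3). Me1 was highest under methionine restriction (522 ± 79.2), ahead of its controls (328 ± 67.4), and lowest in Snell dwarfs (48.5 ± 4.0), below restricted males of 6 months (95.7 ± 10.7). Serpina7 was highest in Snell dwarfs (311 ± 66.9) and then in GHRKO mice (152 ± 50.5), and lowest in Protandim males (2.41 ± 1.97). Klf9 ranged from 146 ± 13.4 in Protandim females to 20.3 ± 4.97 in restricted females of 12 months, close to restricted males of that age (20.9 ± 11.7) and Snell dwarfs (21.2 ± 8.14).

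Thra ran from 23.0 ± 2.43 CPM in 17-alpha-estradiol females to 9.89 ± 1.38 in restricted males of 12 months, and the 4 calorie-restricted groups were its 4 lowest. Thrb ran from 35.8 ± 3.61 in the methionine controls to 21.1 ± 4.68 in acarbose males of 12 months, and neighbouring groups in that order lay within their spread. Ttr was highest in GHRKO mice (9554 ± 1308), next to Snell dwarfs (9331 ± 3129), and lowest in 17-alpha-estradiol females (4036 ± 319).

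**Figure D4:**
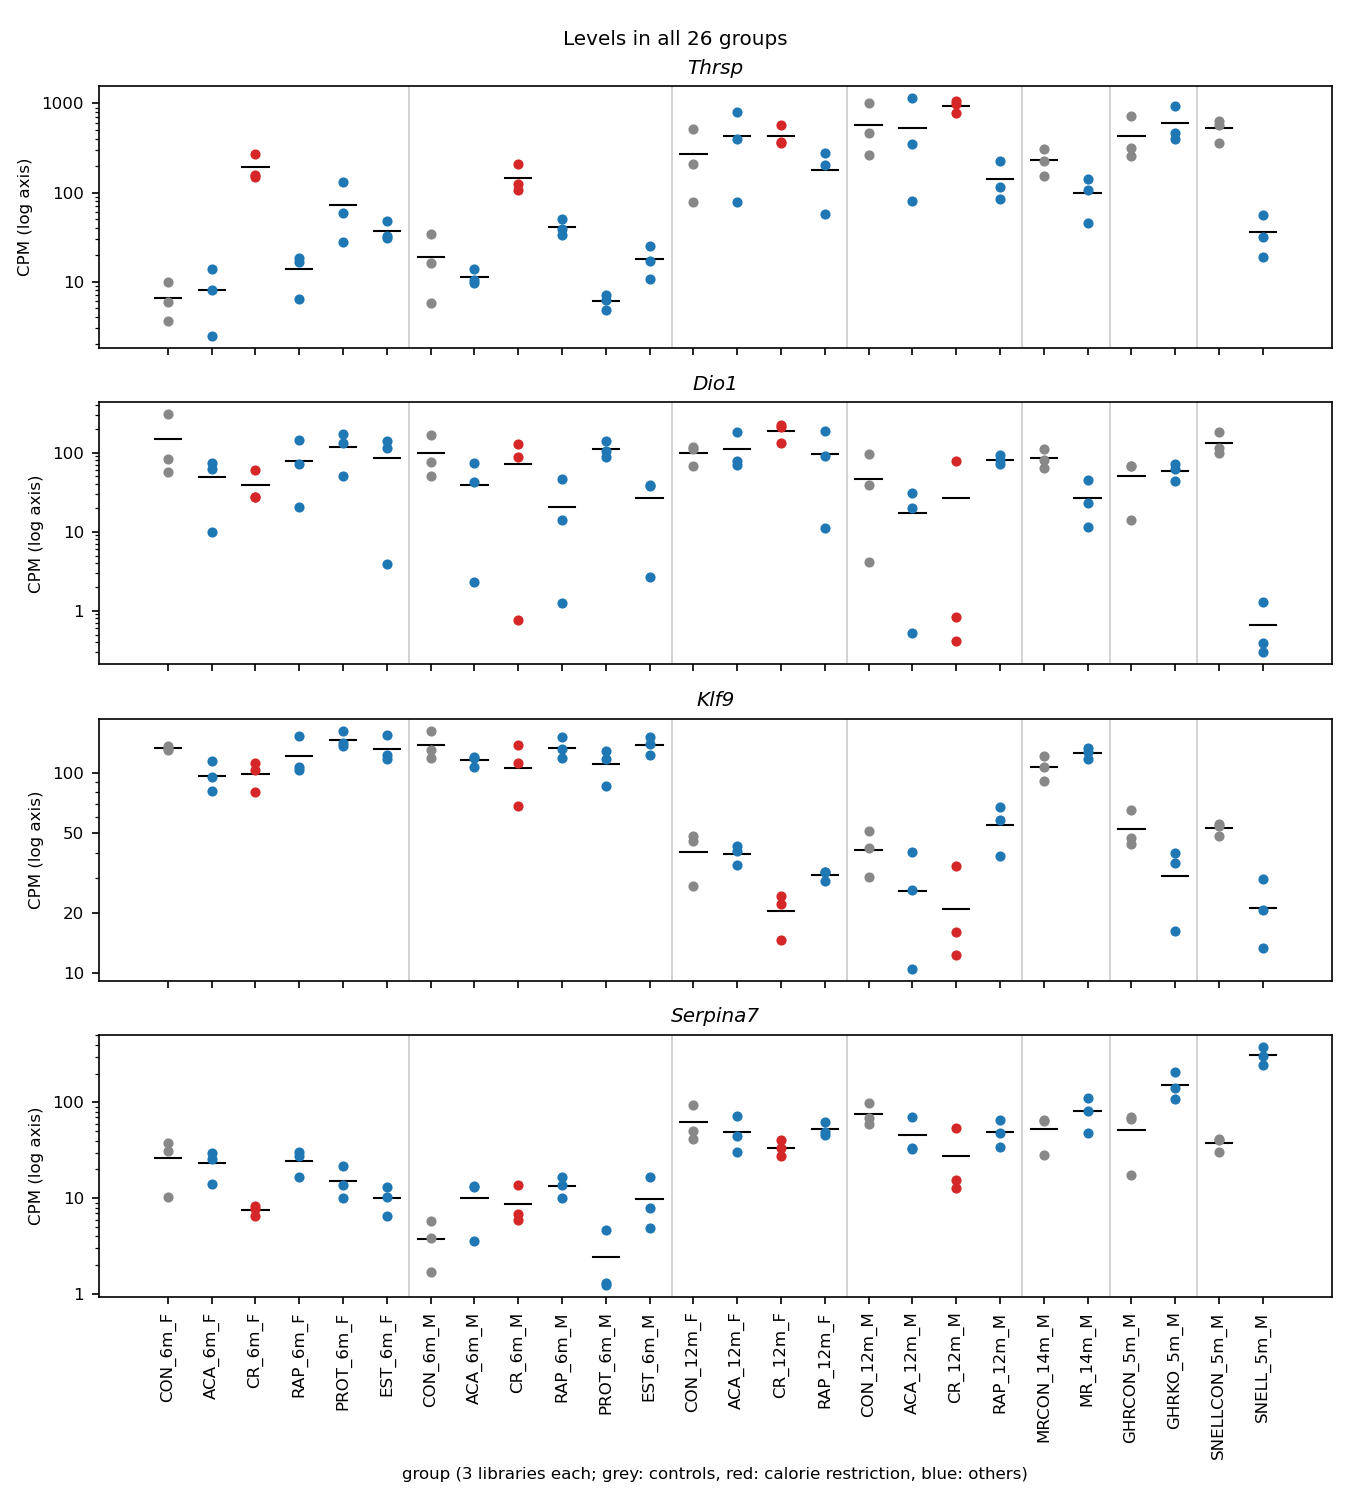
CPM on a log axis of Thrsp, Dio1, Klf9 and Serpina7 in all 26 groups, with a point per library, black lines for group means, and grey points for controls, red for calorie restriction and blue for the other groups (CON control, ACA acarbose, CR calorie restriction, RAP rapamycin, PROT Protandim, EST 17-alpha-estradiol, MR methionine restriction, F female, M male). Thrsp lies above 100 CPM in all 6 restricted libraries of 6 months, and Dio1 has libraries near 1 CPM in several groups of males. Among them are those at 0.420 and 0.827 CPM in restricted males of 12 months.

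Dio1 had the widest range of the 8 members over the UM-HET3 libraries, its highest level being 400 times its lowest at 6 months and 531 times at 12 months. It was under 5 CPM in 12 of the 78 libraries: the 3 Snell dwarfs and 9 UM-HET3 mice, 8 of them males. In restricted males of 12 months it was at 0.420, 0.827 and 78.1 CPM (7, 13 and 1276 counts), and in restricted males of 6 months at 0.767, 128 and 87.4 CPM (24, 3801 and 2595 counts). A control male of 12 months held 4.19 CPM beside 39.5 and 95.8 CPM. The standard errors of the Dio1 effects in UM-HET3 mice were accordingly 0.91 to 0.98 on the log2 scale, and none of those over both sexes was called, the lowest adjusted p being 0.37 by edgeR.

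The genes whose group means followed each member most closely were ranked by Pearson's r of mean log2 CPM over the 26 groups among 9119 genes, as a description; groups share stocks, ages and controls. For Thrsp they were Pmvk (0.90), an enzyme of the cholesterol pathway, Khk (0.90), which phosphorylates fructose, and Srebf1 (0.90), the lipogenic transcription factor. For Klf9 they were Mtor, Atxn2 and Smarcc2 (each 0.97), and for Ttr the ATP synthase genes Atp5c1 and Atp5f1 and the cytochrome oxidase gene Cox6b1 (each 0.94 or 0.95). Serpina7 was followed by Hat1, Ugp2 and Tceal9 (each 0.88), Thrb by Txlng (0.86), Echdc1 (0.80) and Smchd1 (0.77), Thra by Myh14 (0.80), Add1 (0.79) and Trafd1 (0.77) and Me1 by Pygl (0.81), Fgfr1op2 (0.79) and Cfhr2 (0.77). Dio1 had the loosest followers: Mup18 (0.70), Fbxo8 (0.69) and Entpd8 (0.68). Among the members themselves, Klf9 and Ttr ran opposite (r = -0.91), Thrsp and Ttr together (0.69), and Thrsp and Dio1 were unrelated (-0.01). Group means of Klf9 were 96.9 to 146 CPM in the groups of 6 and 14 months and 20.3 to 54.8 CPM in those of 5 and 12 months. For Ttr they were 4036 to 6603 CPM and 5319 to 9554 CPM. Library totals were 21876573 to 37778510 and 15521588 to 22220278 counts. The part of this split in the r values was not tested.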

How the data were processed

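Liver poly(A) RNA was sequenced in 78 mice, 3 biological replicates in each of 26 groups per the labels. The deposited values are whole-number read counts per gene in a single table. They were made by the authors with bcl2fastq 1.8.4, Trimmomatic 0.32, STAR 2.5.2b and featureCounts 1.5 on GRCm38, per the submitters' processing notes. The strand setting and the annotation release are not given in the sources used here. Totals ran from 15521588 to 37778510 counts per library, and no 2 replicates agreed within sampling noise.

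Genes passing filterByExpr were fitted in R 4.3.3 with edgeR 4.0.16 (TMM, robust quasi-likelihood test, Benjamini-Hochberg adjustment over all genes tested, threshold 0.05), in separate sets for the 6-month, 12-month, methionine, GHRKO and Snell libraries, and jointly for differences between models or ages. UM-HET3 effects are the mean of the female and male differences, and a standard error is the log2 change over the root of F. RPKM used GENCODE exon lengths. The steps were tested on simulated data. DESeq2 1.42.0, other filters and scalings, left-out libraries and a replicate block were tried as alternatives. The members, the gene lists and the named genes were chosen with earlier results of these data known; list genes named are up to 4 per list with the smallest adjusted p among those called in Snell dwarfs and up to 2 in each other comparison, and for likeness the 3 with the highest r and a mean log2 CPM of at least 2. Some list genes are not reported here and are left out of the plot of the pathway lists.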

Additional observations from a re-analysis of the deposited data

Results flagged for a closer look

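The effect of calorie restriction on Thrsp, the Spot 14 gene of lipogenesis, differed between the 2 ages by a test of the difference itself. Restriction had lasted 2 months in the 6-month mice and 8 months in the 12-month mice, so age and length of treatment cannot be told apart. The log2 change was 3.93 ± 0.45 at 6 months and 0.71 ± 0.62 at 12 months, and the difference was -3.22 ± 0.75 (adjusted p = 0.0027 by edgeR's quasi-likelihood test with Benjamini-Hochberg adjustment, where 12.8% of genes were called). The 6 control libraries of 6 months lay between 3.58 and 34.6 CPM and those of 12 months between 77.8 and 1012 CPM, and the part of these control levels in the difference was not tested.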

How the results depend on the processing

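Of 4056 recomputed member effects, 3959 stayed on the same side of the threshold, 71 calls were lost, 26 were gained and no called effect changed sign. Leaving out 1 library at a time gave 353 to 2044 genes called for acarbose at 6 months (913 with all libraries), 0 to 219 for rapamycin (61), 1 to 953 for Protandim (205) and 8 to 191 for 17-alpha-estradiol (57). At 12 months it gave 0 to 22 for acarbose (8) and 0 to 1 for rapamycin (0). It gave 98 to 1728 for methionine restriction (527), 1073 to 1700 for GHRKO (1865), 1263 to 2487 for Snell dwarfs (2520) and 70 to 174 for the difference between models (152). Members called ranged from 1 to 2 for GHRKO (1), 0 to 1 for methionine restriction (0), and for calorie restriction 2 to 4 in the younger mice (4) and 1 to 4 in the older (3). Within restricted males, leaving out 1 library made a call of Ttr at 6 months (without replicate 1, 0.82) and of Serpina7 at 12 months (without replicate 2, -2.40). The age difference of Klf9 under restriction was called without the restricted 12-month male of replicate 1 (-0.85).

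With no filter on low counts the genes called were 558 for acarbose, 4 for rapamycin, 46 for Protandim and 12 for 17-alpha-estradiol at 6 months, and 1 for rapamycin at 12 months. Members called under that setting were 1 for methionine restriction and 1 for calorie restriction at 12 months. With the compared groups alone they were 240 for acarbose, 0 for rapamycin, 0 for Protandim and 26 for 17-alpha-estradiol at 6 months and 1 for acarbose at 12 months, with 2 members for calorie restriction at 6 months. DESeq2 called 271 genes for rapamycin, 636 for Protandim and 325 for 17-alpha-estradiol at 6 months, and, at 12 months, 98 for acarbose and 10 for rapamycin. It called 1119 genes and 2 members for methionine restriction, 377 genes for the difference between models and 2 members for GHRKO. Without 9 libraries past a limit of 1000 counts of other-tissue markers, an alternative chosen after seeing the data, the genes called were 490 for acarbose, 2551 for calorie restriction, 6 for rapamycin, 4 for Protandim and 16 for 17-alpha-estradiol at 6 months and 97 for the difference between models, with 2 members for calorie restriction at 6 months. The planned form of that rule, with Cela1 among the markers, took out 17 libraries and whole control groups and was not run. Where only members called are given, the share of all genes called under that setting is not shown. Those member counts are a description. The causes of these shifts were not tested.

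The replicate numbers gave no clear sign of paired mice. Same-numbered libraries deviated together at a mean r of 0.11 in the methionine set, -0.013 in the GHRKO set and 0.029 in the Snell set. In UM-HET3 mice the mean r was 0.012 at 6 months and 0.0013 at 12 months. The methionine, GHRKO and Snell means rest on 3 pairs each, too few to exclude a pairing. The 3 methionine pairs ran from 0.045 to 0.19, against a mean of -0.052 for pairs of unlike number. With the replicate number as a block, 346 genes were called for Protandim at 6 months and 5 for acarbose at 12 months, with 3 members for methionine restriction (Dio1 at an adjusted p of 0.024, Me1 at 0.024 and Thrsp at 0.039 by edgeR) and 3 for GHRKO (Ttr, Klf9 at 0.049 and Serpina7 at 0.036). For methionine restriction and GHRKO the share of all genes called with the block is not given, so these member counts are a description. Over the member effects the block gained 6 calls and lost 1, Thrsp in the difference between models. At the lowest levels (Dio1 from 5 counts in a Snell dwarf library) depth limits the precision of a fold change.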
